A study of Mus musculus with 38 samples.

Results

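Heat shock genes of the cytosol and the mitochondria were described across mouse livers of 4 genotypes and 3 feeding states. The 10 genes were listed by symbol (Hspa1a, Hspa1b, Hspa8, Hsph1, Dnajb1, Dnaja1, Hsp90aa1, Hspb1, Hspd1 and Hspe1), with no rule on a measured level. Earlier results of these data were known when they were chosen, so the list is not blind to the data. Of the 10, 9 were among the 22485 genes measured by the array, and Hspb1, Hspa1a and Dnajb1 varied most over the groups. Hspa1b had no probe under its own name. The 9 measured genes had 15 probes in all, and each gene was read from its probe of highest mean over the samples.

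Heat shock proteins are chaperones that bind unfolded proteins and help them fold or refold. Hsp70 proteins (Hspa1a, Hspa1b, Hspa8) take up substrates in an ATP-driven cycle, which J-domain proteins (Dnajb1, Dnaja1) start and nucleotide exchange factors (Hsph1) reset, and Hsp90 (Hsp90aa1) acts on later folding steps of kinases and steroid receptors. Hspb1 is a small heat shock protein that holds unfolded proteins without ATP, and Hspd1 and Hspe1 form the chaperonin of the mitochondrial matrix. Many of these genes are induced through heat shock factor 1, which binds inverted repeats of the GAA unit in their promoters, and the liver, a site of heavy protein synthesis, expresses several of them at all times.

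The mice were males aged 11 to 12 weeks of mixed FVB/N-C57Bl/6 strain. LIRFKO mice lack the insulin receptor and FoxO1 in hepatocytes, LIRKO mice lack the receptor alone, and IR/FoxO1 floxed and IR floxed mice are the controls. Deletion came from Cre under the albumin promoter, which is active in hepatocytes, and whether other liver cells keep both genes was not tested here. The comparisons ask how feeding acts on liver genes with and without the receptor, and how livers that also lack FoxO1 differ. LIRFKO and LIRKO mice have separate floxed controls. Between them, FoxO1 loss and other differences of the floxed lines cannot be told apart.

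Every mouse was fasted first, for which the labels give both an overnight and a 24 h fast. Glucose mice were killed 60 min after a glucose dose (3 LIRFKO, 3 LIRKO and 3 IR floxed mice), refed mice 6 h after refeeding (4 LIRFKO, 4 LIRKO, 3 IR/FoxO1 floxed and 4 IR floxed), and fasted mice without either (3 LIRFKO, 3 LIRKO, 3 IR/FoxO1 floxed and 4 IR floxed). No IR/FoxO1 floxed glucose sample was analysed here. The 37 grouped samples are separate mice by their numbers. All numbers of glucose mice are above those of all refed and fasted mice, and the glucose dose and this difference in numbering cannot be told apart.

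Values are deposited log2 intensities of single dye channels of two-colour arrays, on 20 arrays of 5 slides, with column medians of 5.72 to 5.78. A difference of 1 is thus a doubling of intensity, and levels of different genes come from different probes and are not set against each other. Foxo1 lay at 6.07 to 7.12 in LIRFKO livers and at 9.16 to 10.58 in LIRKO livers. Insr lay at 6.30 to 7.81 in LIRKO livers, against 7.77 to 9.05 in IR floxed livers. The library labelled IRF.fl_Fast_523, a fasted IR/FoxO1 floxed liver, held Foxo1 at 6.77, where the others of its group lay at 10.17 or above. It went against its label, so fitted changes and calls that rest on that group are also given without it. The title of IRF.KO_GTT_724 names glucose and its characteristics name fasting, so it entered no comparison. The 12 hepatocyte markers lay between the 96.1st and the 100th percentile of all genes, and 0 of 12 passed the test in any of the 7 comparisons with fasted livers. Several lay near the highest value of the table, 16, among them Alb with a mean of 15.79, where changes may be understated. In a whole liver, fewer cells of a type and less RNA per cell cannot be told apart.

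Promoters of 8 of the 10 genes were in the RefSeq table used here (GRCm38.p6), as 13 windows from 250 bases before to 50 bases after an annotated start. They were searched for GAANNTTC and TTCNNGAA, the inverted pairs of the GAA unit, each of which reads the same on both strands. At least 1 pair was found for 7 of the 8 genes, where 17.0% of 27025 genes with a window had one. The 7 are not separate cases, since the Hspa1a and Hspa1b windows are near copies and those of Hspd1 and Hspe1 overlap. The 8 genes also had more windows per gene than the 27025 genes, which had 32851 windows. Windows are printed for genes that the results turn on, Hspa1a with its near copy Hspa1b and its partner Dnajb1 for glucose, Hsph1 for refeeding and Hspb1 for genotype, and for Hspe1, which changed little. All are written 5′ to 3′ along the gene, and capitals mark the matched letters.
Hspa1a: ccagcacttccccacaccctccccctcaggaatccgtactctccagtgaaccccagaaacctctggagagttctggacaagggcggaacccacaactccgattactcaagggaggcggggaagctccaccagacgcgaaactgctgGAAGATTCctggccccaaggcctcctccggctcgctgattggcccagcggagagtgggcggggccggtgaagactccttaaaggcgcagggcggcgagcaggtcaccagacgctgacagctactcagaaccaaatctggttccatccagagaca
Hspa1b: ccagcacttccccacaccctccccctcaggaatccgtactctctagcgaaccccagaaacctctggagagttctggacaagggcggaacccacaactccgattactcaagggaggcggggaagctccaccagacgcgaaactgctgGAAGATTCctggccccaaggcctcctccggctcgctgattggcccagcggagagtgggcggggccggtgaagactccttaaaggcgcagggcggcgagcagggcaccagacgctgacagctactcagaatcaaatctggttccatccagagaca
Dnajb1: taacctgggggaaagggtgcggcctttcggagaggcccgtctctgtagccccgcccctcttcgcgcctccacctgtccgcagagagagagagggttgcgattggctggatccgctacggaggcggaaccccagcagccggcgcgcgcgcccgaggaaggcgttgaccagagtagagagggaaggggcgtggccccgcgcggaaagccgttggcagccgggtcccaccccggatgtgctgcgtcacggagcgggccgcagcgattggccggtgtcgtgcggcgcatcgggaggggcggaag
Hsph1: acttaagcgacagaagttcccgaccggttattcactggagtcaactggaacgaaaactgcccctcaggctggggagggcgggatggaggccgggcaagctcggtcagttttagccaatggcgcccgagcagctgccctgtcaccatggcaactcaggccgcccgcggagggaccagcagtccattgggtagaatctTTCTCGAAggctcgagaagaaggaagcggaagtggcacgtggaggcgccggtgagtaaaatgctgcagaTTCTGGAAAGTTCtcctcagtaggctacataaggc
Hspb1: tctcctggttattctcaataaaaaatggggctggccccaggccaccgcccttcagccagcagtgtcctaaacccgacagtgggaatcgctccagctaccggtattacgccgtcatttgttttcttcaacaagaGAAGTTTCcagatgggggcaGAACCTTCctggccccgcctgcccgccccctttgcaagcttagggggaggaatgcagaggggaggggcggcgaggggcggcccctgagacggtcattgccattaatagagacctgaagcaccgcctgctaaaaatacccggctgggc
Hspe1: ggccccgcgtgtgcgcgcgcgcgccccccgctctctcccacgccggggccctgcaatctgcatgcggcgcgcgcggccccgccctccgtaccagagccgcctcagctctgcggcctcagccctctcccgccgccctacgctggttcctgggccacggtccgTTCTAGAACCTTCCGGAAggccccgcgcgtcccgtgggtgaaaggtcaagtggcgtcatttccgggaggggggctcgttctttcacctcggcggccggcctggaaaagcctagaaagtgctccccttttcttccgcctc

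The Hspa1a window (chr17:34972107-34972406, minus strand) and the Hspa1b window (chr17:34959189-34959488, minus strand) were the same at 296 of 300 bases, or 98.7%. They differed by C44T, T47C, T249G and C276T, written as Hspa1a base, position from the 5′ end of the window, and Hspa1b base. Both held GAAGATTC from 104 to 97 bases before the start. The genes themselves (Hspa1a chr17:34969359-34972156, Hspa1b chr17:34956429-34959238) lie 10120 bases apart, and whether the Hspa1a probe also reads Hspa1b RNA was not tested, so its values may hold both.

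Hspb1 (chr5:135887669-135887968, plus strand) held 2 pairs, the first from 117 and the second from 97 bases before the start. The Hsph1 window (the second listed, chr5:149636266-149636565, minus strand) held TTCTCGAA from 54 bases before the start, and a run of 3 units after it, at bases 266 to 278 of the window. Runs of 3 units, a pair of the first kind and a further unit in the same spacing on either strand, were in windows of 0.662% of genes, and each contains both kinds of pair. Hspe1 (chr1:55087898-55088197, plus strand) held overlapping pairs from 89 to 72 bases before its start, and the same run lies in the second Hspd1 window, since the 2 windows overlap by 285 bases. Dnajb1 (chr8:83607925-83608224, plus strand) was the gene with no pair, in either of its windows. In Dnaja1 (chr4:40722218-40722517, plus strand) 1 of 3 windows held a pair, GAAAATTC. A match of letters is not a measured binding site, and no match says only that these letters are not in that window.

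Hspa1a, the stress-inducible cytosolic Hsp70, rose after glucose in LIRKO and IR floxed livers. In LIRFKO livers it lay at 6.98, 7.17 and 6.07 after glucose, against 5.65, 5.59 and 5.67 fasted. All 3 glucose livers lay above the fasted ones, the lowest of them by a small step, and the change of 0.93 ± 0.34 log2 (SE) did not pass (adjusted p = 0.243). In LIRKO livers the values were 7.03, 7.81 and 8.79 after glucose, against 5.91, 5.89 and 6.41 fasted, again without overlap. The rise was 1.88 ± 0.37 log2 (3.68-fold, adjusted p = 0.0243 by limma), of rank 2 among the rises of all genes.

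In IR floxed livers Hspa1a lay at 8.18, 8.51 and 7.16 after glucose, against 5.74, 5.61, 5.36 and 5.52 in fasted livers. Every glucose liver lay above every fasted liver by more than 1 log2. The fitted rise was 2.43 ± 0.35 log2 (95% interval 1.71 to 3.14), or 5.37-fold, with an adjusted p of 0.00143 by limma. No other of the 22485 genes rose by more in that comparison, and Hspa1a ranked 2 by p. Fasted Hspa1a values lay close to the column medians, and those of LIRFKO, IR/FoxO1 floxed and IR floxed livers within or below the range of those medians. Signal over background was not analysed here, so the folds are ratios of deposited intensities and may understate the change. Within the slides that held both groups, the difference was 1.38 and 1.49 log2 in LIRFKO, 0.62 and 1.9 in LIRKO and 1.55 and 2.44 in IR floxed livers.

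Called members after glucose were 0 of 9 in LIRFKO livers, where 0.654% of all genes passed, 1 of 9 in LIRKO livers, where 0.596% passed, and 1 of 9 in IR floxed livers, where 0.16% passed. An unadjusted p under 0.05 was found for 2 of 9 in LIRFKO, 2 in LIRKO and 4 in IR floxed livers, beside 12.3%, 11.3% and 8.5% of all genes. The Hspa1a call in LIRKO livers was lost without IR.KO_Fast_505 (adjusted p = 0.0941) or IR.KO_GTT_690 (adjusted p = 0.112), and with no array block (adjusted p = 0.0517), while that in IR floxed livers held without any 1 mouse. With only the 2 groups compared in the fit, 0 genes of the whole array passed in any of the 3 glucose comparisons, and Hspa1a differed by 1.81 log2 in LIRKO (adjusted p = 0.603) and 2.47 log2 in IR floxed livers (adjusted p = 0.838).

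**Figure D1:**
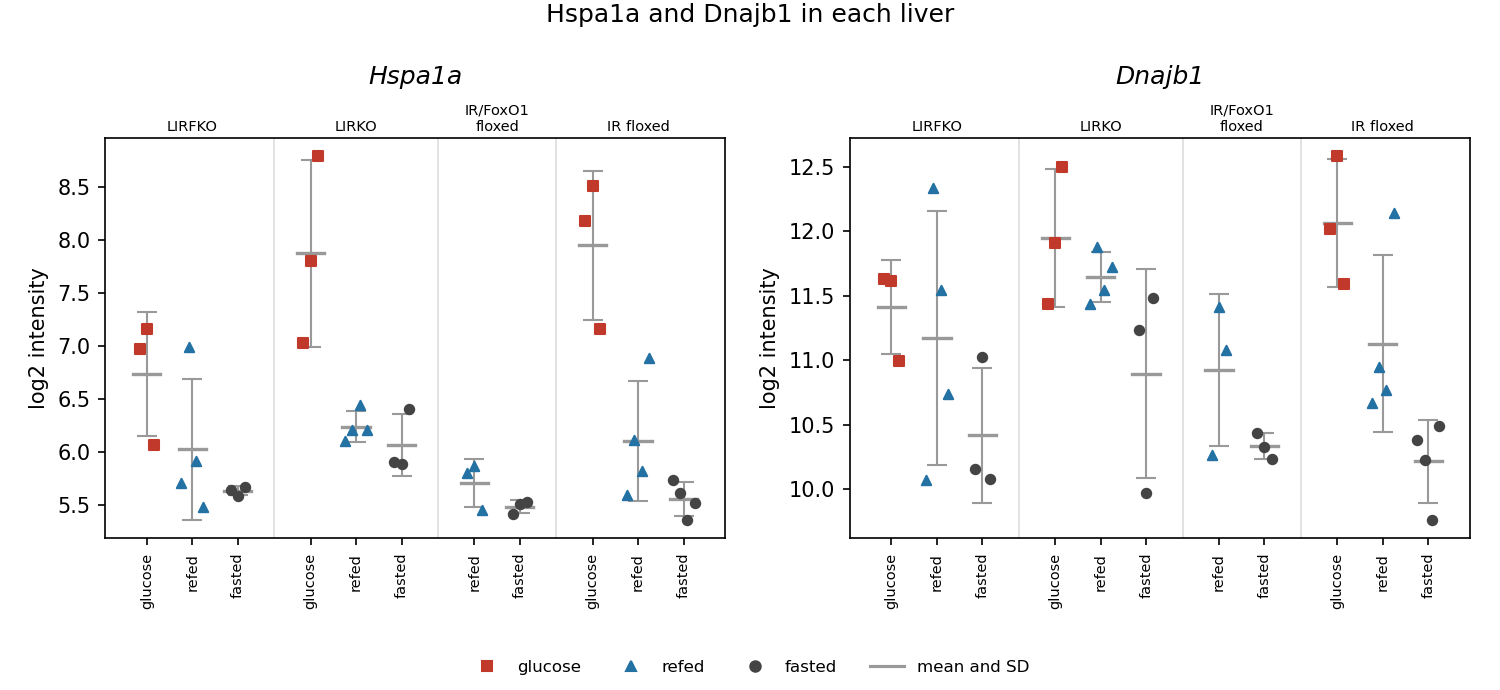
Log2 intensity of Hspa1a (left) and Dnajb1 (right) in each of the 37 grouped livers, by genotype and feeding state; each point is 1 mouse, and grey bars give the mean and SD of a group. Hspa1a lies between 7.03 and 8.79 in glucose livers of LIRKO and IR floxed mice, and the highest fasted liver lies at 6.41.

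Dnajb1, the J-domain partner of Hsp70 after stress, had the next largest change among the members in each genotype and passed in none. In LIRFKO livers it was 11.63, 11.62 and 10.99 after glucose, against 10.15, 11.02 and 10.08 fasted, and the lowest glucose liver lay just under the highest fasted one (0.88 ± 0.45 log2, adjusted p = 0.431). In LIRKO livers it was 11.43, 11.91 and 12.50, against 11.24, 9.97 and 11.48, with 1 fasted liver far below the others (1.02 ± 0.48 log2, adjusted p = 0.428). In IR floxed livers it was 12.02, 12.59 and 11.59, against 10.38, 10.23, 9.76 and 10.49. There the groups did not overlap, and the change of 1.92 ± 0.46 log2 ranked 5 among the rises of all genes but missed the threshold (adjusted p = 0.0904; 0.0445 without IR.fl_GTT_659, and 0.0482 when only genes above the median level were tested).

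Hsph1, the nucleotide exchange factor, was 10.59, 10.60 and 10.11 after glucose in LIRFKO livers, against 9.26, 10.05 and 9.36 fasted. These groups did not overlap (0.74 ± 0.34 log2, adjusted p = 0.357). In LIRKO livers it was 10.26, 11.22 and 11.32, against 10.43, 10.57 and 10.54 (0.42 ± 0.36 log2, adjusted p = 0.805), and in IR floxed livers 10.84, 11.61 and 10.19, against 9.87, 9.55, 10.25 and 10.45 (0.99 ± 0.34 log2, adjusted p = 0.348). In both, 1 glucose liver lay among or below the fasted ones. Hsp90aa1, the inducible cytosolic Hsp90, was 12.20, 12.06 and 11.76 after glucose in LIRFKO, 11.73, 12.58 and 12.57 in LIRKO and 11.85, 12.92 and 11.71 in IR floxed livers. Over fasted livers that was 0.54 ± 0.33, -0.12 ± 0.36 and 0.36 ± 0.33 log2, with adjusted p of 0.547, 0.978 and 0.849.

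Dnaja1, a J-domain partner of the constitutive Hsp70, differed after glucose by 0.22 log2 in LIRFKO, 0.11 in LIRKO and 0.73 ± 0.27 in IR floxed livers (adjusted p = 0.405 in the last). Hspa8, the constitutive Hsp70, differed by 0, -0.05 and 0.45 log2 in the same order, Hspd1 by 0.03, -0.09 and 0.03, and Hspe1 by -0.21, -0.27 and 0.26. Hspb1 had means of 12.2, 13.71 and 13 after glucose, against 11.84, 13.72 and 12.52 fasted. The median change over the 9 members was 0.22, 0.04 and 0.45 log2, beside 0 over all genes in each genotype. Members with all glucose livers above all fasted ones were 2, 1 and 2 of 9, where 6.58%, 5.11% and 2.79% of all genes were so placed. Neutrophil markers had a median change of 1.05 log2 after glucose in LIRFKO livers, with 0 of 8 called, and 1 of 8 fell in LIRKO livers, where 0.596% of all genes passed. In LIRFKO livers 1 mouse carried this, since the mean over the 8 markers was 9.36 in IRF.KO_GTT_726 and 6.66 and 6.85 in the others, against 6.57 to 7.07 in fasted livers. Their part in the members' values was not tested.

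The glucose response of Hspa1a differed between LIRFKO and LIRKO livers by -0.95 ± 0.48 log2 (95% interval -1.93 to 0.03, adjusted p = 0.586), and between LIRKO and IR floxed livers by -0.54 ± 0.48 log2 (95% interval -1.53 to 0.44, adjusted p = 0.894). Neither passed, and each interval runs from a response lower by more than 1 log2 to one above 0. Both use the fasted and glucose LIRKO livers. Over all members, 0 of 9 passed in either difference, beside 0.0578% and 0% of all genes, and 0 of 9 had an unadjusted p under 0.05, beside 8.93% and 6.86%.

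On refeeding, Hsp90aa1 was called in LIRFKO and Hsph1 in IR/FoxO1 floxed livers, and Hspa1a passed in no genotype. In LIRFKO livers Hsp90aa1 lay at 12.69, 13.26, 12.41 and 12.35 refed, against 11.11, 11.87 and 11.14 fasted. Every refed liver lay above every fasted one, and Hsp90aa1 rose by 1.26 ± 0.31 log2 (2.4-fold, adjusted p = 0.0323 by limma). On the 1 slide that held both groups, with 1 mouse of each, the difference was 0.48 log2. In LIRKO livers it was 13.02, 12.89, 12.64 and 12.83, against 12.10, 12.57 and 12.43. These did not overlap either, but lay close together (0.32 ± 0.33 log2, adjusted p = 0.818). In IR/FoxO1 floxed livers it was 12.90, 12.53 and 12.72, against 11.69, 11.30 and 11.34, without overlap, and the change of 1.15 ± 0.33 log2 missed the threshold (adjusted p = 0.0525; 0.246 without IRF.fl_Fast_523). In IR floxed livers it was 12.26, 12.04, 13.33 and 13.15, against 11.53, 11.41, 12.48 and 12.21, where 2 refed livers lay within the fasted range (0.6 ± 0.29 log2, adjusted p = 0.348).

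Hsph1 in LIRFKO livers was 10.73, 11.43, 10.35 and 10.22 refed, against 9.26, 10.05 and 9.36 fasted. The groups did not overlap, but the change of 1.08 ± 0.32 log2 did not pass (adjusted p = 0.0793). In LIRKO livers it was 10.52, 10.69, 10.54 and 10.67, against 10.43, 10.57 and 10.54, so that both states covered nearly the same narrow range (-0.01 ± 0.34 log2). In IR/FoxO1 floxed livers it was 11.20, 10.48 and 10.53, against 9.56, 9.17 and 9.33. Here Hsph1 rose by 1.22 ± 0.34 log2 (2.32-fold, adjusted p = 0.0433 by limma). In IR floxed livers it was 10.58, 10.36, 11.25 and 11.66, against 9.87, 9.55, 10.25 and 10.45 (0.8 ± 0.3 log2, adjusted p = 0.158). A second Hsph1 probe differed by 1.02 log2 in LIRFKO, -0.03 in LIRKO, 1.41 in IR/FoxO1 floxed and 0.82 in IR floxed livers, and passed in IR/FoxO1 floxed livers when each probe was tested on its own (adjusted p = 0.0296; 0.126 without IRF.fl_Fast_523).

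Called members on refeeding were 1 of 9 in LIRFKO livers, where 1.81% of all genes passed, 0 in LIRKO (1.85%), 1 in IR/FoxO1 floxed (3.54%) and 0 in IR floxed livers (3.61%). An unadjusted p under 0.05 was found for 5 of 9 in LIRFKO, 0 in LIRKO, 3 in IR/FoxO1 floxed and 5 in IR floxed livers, beside 13.6%, 12.2%, 14.2% and 14.3% of all genes. The Hsp90aa1 call in LIRFKO was lost without IRF.KO_Refed_468 (adjusted p = 0.0783), IRF.KO_Refed_469 (0.0981), IRF.KO_Fast_518 (0.14) or IRF.KO_Fast_525 (0.155), and with only the compared groups in the fit (0.136). The Hsph1 call in IR/FoxO1 floxed livers was lost without any 1 of its 6 mice (adjusted p from 0.0746 to 0.218), with a slide term (0.147) and with only the compared groups (0.0592), and with IRF.fl_Fast_523 left out of every fit it was 1.06 ± 0.41 log2 (adjusted p = 0.217).

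**Figure D2:**
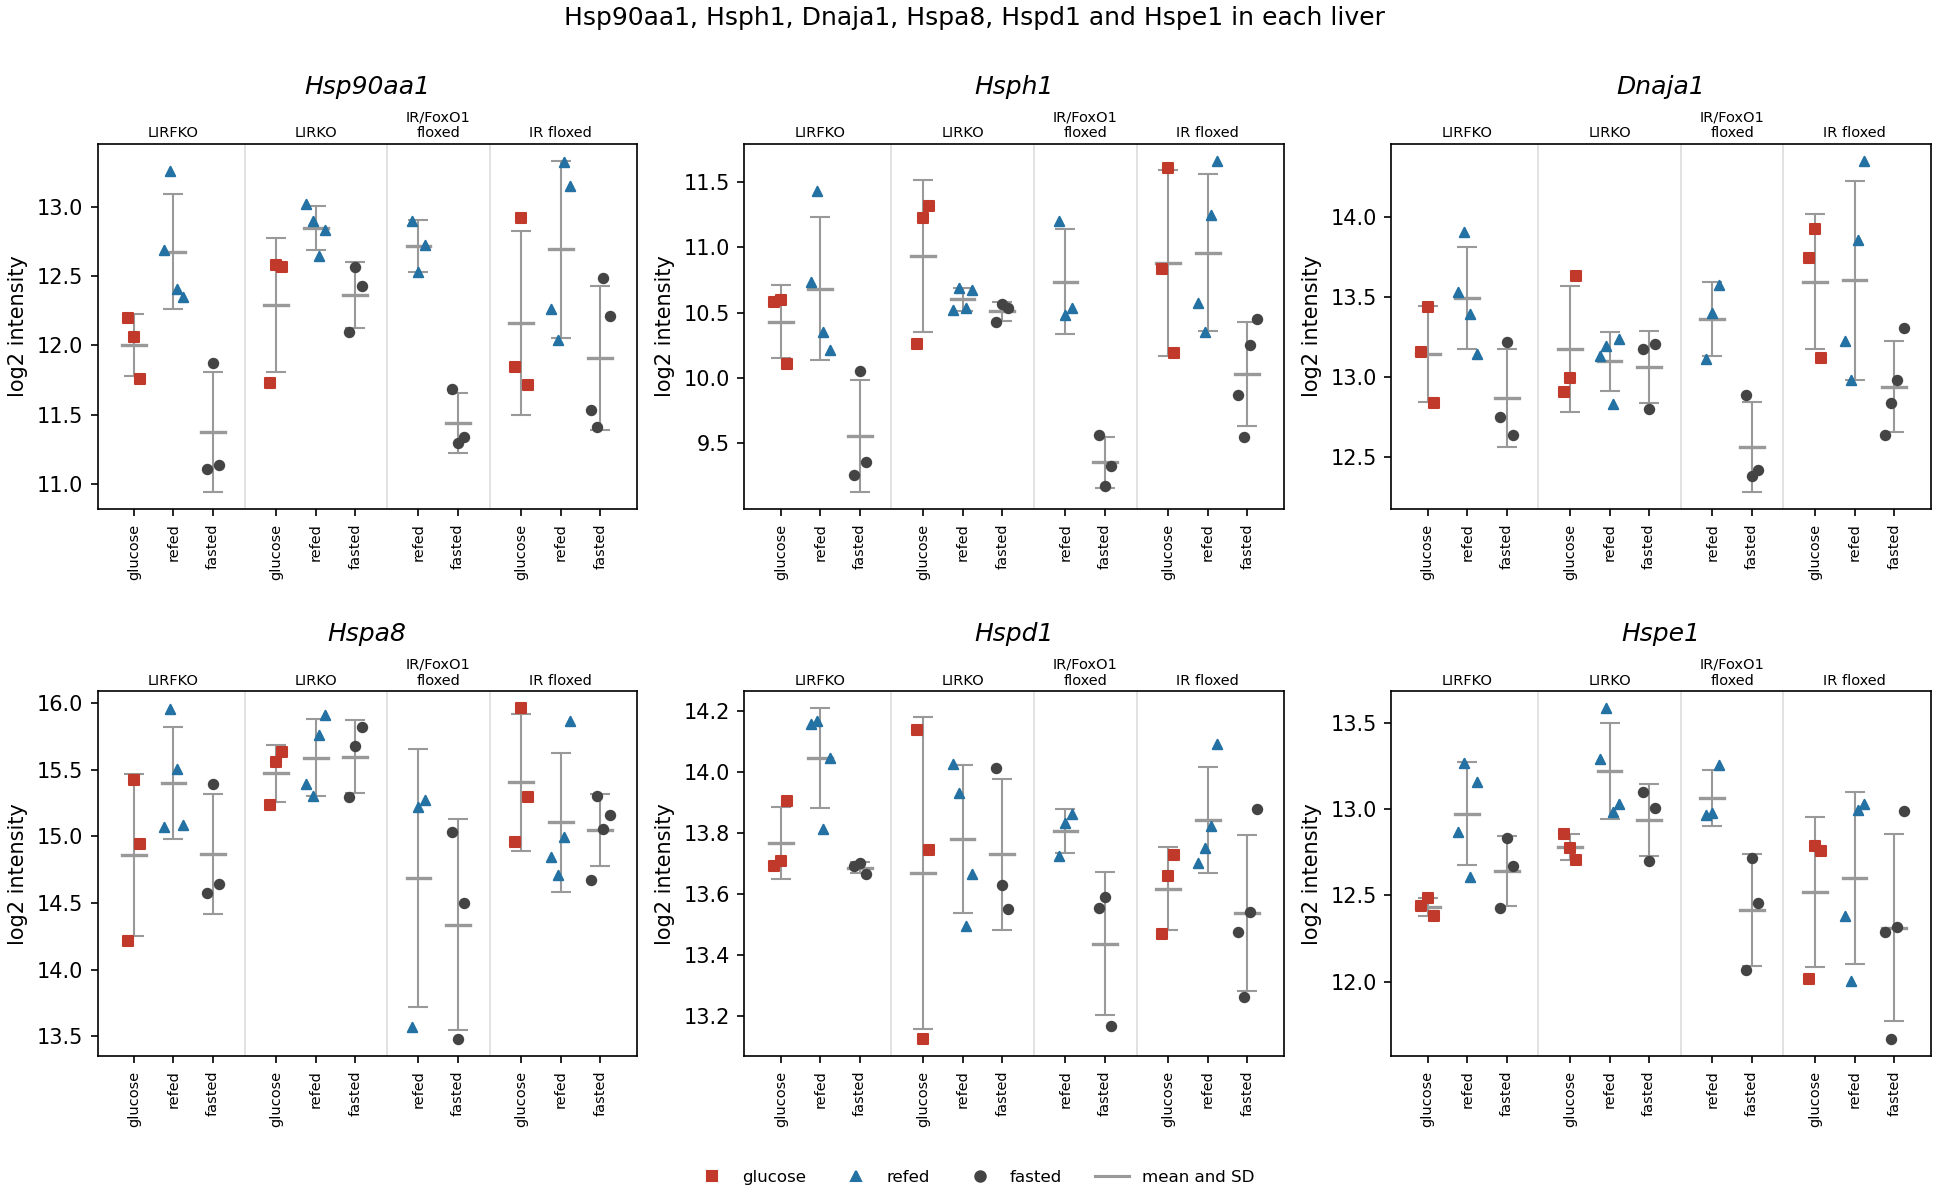
Log2 intensity of Hsp90aa1, Hsph1, Dnaja1, Hspa8, Hspd1 and Hspe1 in each of the 37 grouped livers, by genotype and feeding state; each point is 1 mouse, and grey bars give the mean and SD of a group. Refed LIRFKO and IR/FoxO1 floxed livers lie above their fasted livers in Hsp90aa1 and Hsph1, while the Hsph1 values of refed and fasted LIRKO livers lie together.

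Dnajb1 in LIRFKO livers was 10.07, 12.34, 11.55 and 10.74 refed, against 10.15, 11.02 and 10.08 fasted (0.81 ± 0.43 log2, adjusted p = 0.412), and in LIRKO livers 11.44, 11.88, 11.55 and 11.72, against 11.24, 9.97 and 11.48 (0.77 ± 0.45 log2, adjusted p = 0.546). In IR/FoxO1 floxed livers it was 10.27, 11.42 and 11.08, against 10.44, 10.33 and 10.23 (0.52 ± 0.46 log2, adjusted p = 0.734; 0.54 log2 without IRF.fl_Fast_523). In IR floxed livers it was 10.67, 10.94, 10.77 and 12.14, against 10.38, 10.23, 9.76 and 10.49. The last groups did not overlap, with 1 refed liver over 1 log2 above the rest, and the change of 0.98 ± 0.4 log2 did not pass (adjusted p = 0.214).

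Hspa1a on refeeding was 5.71, 6.99, 5.92 and 5.49 in LIRFKO, 6.10, 6.21, 6.45 and 6.21 in LIRKO, 5.802, 5.87 and 5.46 in IR/FoxO1 floxed and 5.59, 6.12, 5.82 and 6.89 in IR floxed livers. Most of these lay near or within the range of fasted livers, and 1 LIRFKO and 1 IR floxed liver stood higher than the rest of their groups. The changes over fasted livers were 0.48 ± 0.33, 0.23 ± 0.35, 0.08 ± 0.35 and 0.46 ± 0.31 log2, with adjusted p of 0.563 or above, and the IR/FoxO1 floxed change was 0.1 ± 0.42 log2 without IRF.fl_Fast_523. Dnaja1 was higher on refeeding by 0.67 ± 0.25 log2 in LIRFKO, 0.69 ± 0.27 in IR/FoxO1 floxed and 0.65 ± 0.24 in IR floxed livers without passing (adjusted p = 0.202, 0.202 and 0.156), and without IRF.fl_Fast_523 the IR/FoxO1 floxed difference was 0.57 ± 0.33 log2. In LIRKO livers it differed by -0.06 ± 0.27 log2, where its probes disagreed. The dimmer Dnaja1 probe, with a mean of 6.78, differed by 0.62 log2 in LIRKO livers (adjusted p = 0.0538) and rose by 0.75 ± 0.17 log2 in IR/FoxO1 floxed livers (adjusted p = 0.0123; 0.0764 without IRF.fl_Fast_523), with each probe tested on its own.

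The mitochondrial pair and Hspa8 changed less. Hspd1, the large chaperonin subunit, lay at 14.16, 14.17, 13.81 and 14.05 in refed LIRFKO livers, against 13.69, 13.70 and 13.67 fasted. The groups did not overlap, but the change of 0.39 ± 0.15 log2 did not pass (adjusted p = 0.188). Hspe1, its small lid subunit, lay at 12.97, 12.98 and 13.26 in refed IR/FoxO1 floxed livers, against 12.07, 12.72 and 12.46 fasted (0.5 ± 0.25 log2, adjusted p = 0.364; 0.58 without IRF.fl_Fast_523). Hspa8 reached 15.97 in 1 liver, close to the highest value of the table, 16, so differences at its upper end may be understated. On refeeding it differed by 0.53 log2 in LIRFKO, -0.12 in LIRKO, 0.37 in IR/FoxO1 floxed and 0.12 in IR floxed livers, and without IRF.fl_Fast_523, which held its lowest value, the IR/FoxO1 floxed difference turned to -0.17. The dimmer Hspa8 probes differed by 0.01 and 0.33 log2 in IR/FoxO1 floxed livers without that liver, so the turn was that of the brightest probe. Hspb1 was higher on refeeding by 1.16 ± 0.41 log2 in LIRFKO and 0.73 ± 0.44 in LIRKO livers without passing (adjusted p = 0.158 and 0.559). In IR/FoxO1 floxed livers its means were 12.86 refed and 11.81 fasted, without overlap and without passing. Without IRF.fl_Fast_523 that change was 0.57 ± 0.53 log2 (adjusted p = 0.775). In IR floxed livers the means were 12.66 refed and 12.52 fasted, with a fitted change of -0.15 log2.

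The median refeeding change over the 9 members was 0.67 log2 in LIRFKO, 0.22 in LIRKO, 0.52 in IR/FoxO1 floxed and 0.46 in IR floxed livers, beside 0 over all genes in each. Changes above 0 were found for 9, 6, 9 and 8 of 9 members, most of them without passing. Refed livers lay above all fasted ones for 3, 2, 6 and 1 of 9 members, where 5.77%, 6.06%, 9.11% and 4.02% of all genes were so placed. Without IRF.fl_Fast_523 the IR/FoxO1 floxed median was 0.57 log2, 8 of 9 changes lay above 0, 0 of 9 were called beside 2.05% of all genes, and 6 of 9 members did not overlap beside 14.7% of all genes. Between genotypes, 0 of 9 members passed for a difference in the refeeding response in any of 3 comparisons. Between LIRFKO and LIRKO 0.0222% of all genes passed and 3 members had an unadjusted p under 0.05 (5.88% of all genes), between LIRKO and IR floxed 0.165% and 1 member (7.93%), and between LIRFKO and IR/FoxO1 floxed 0.00445% and 0 members (4.06%). Without IRF.fl_Fast_523, 0 of 9 passed in the last of these, and 0 had an unadjusted p under 0.05 (3.9% of all genes). The largest such difference was that of Hsph1 between LIRFKO and LIRKO, 1.09 ± 0.44 log2 (95% interval 0.18 to 1.99, adjusted p = 0.726).

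**Figure D3:**
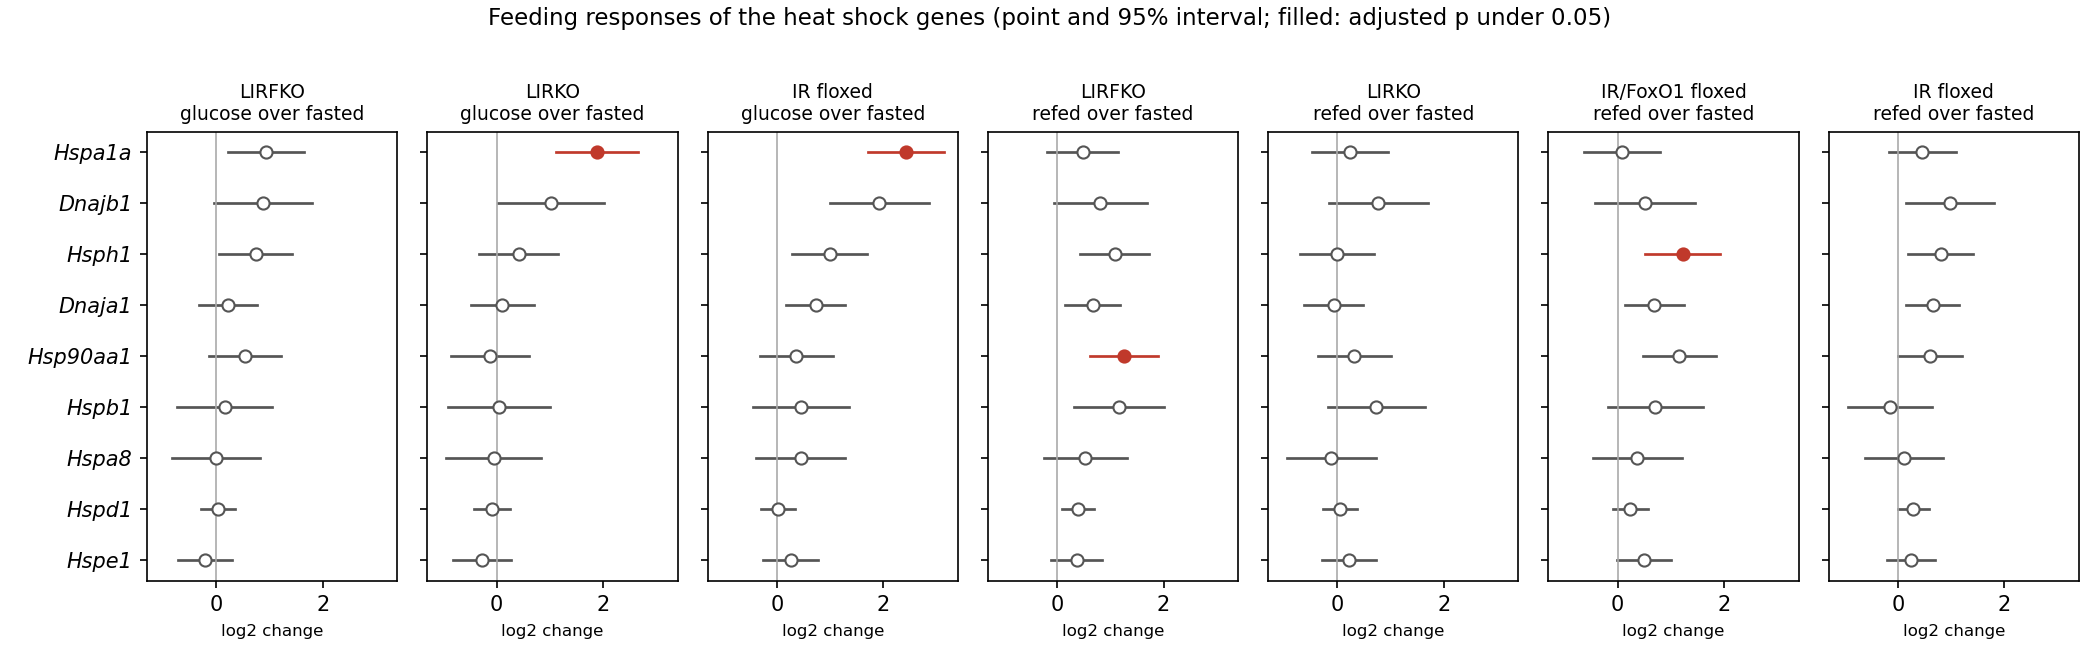
Fitted log2 change of each measured member over fasted livers, after glucose (3 panels) and refeeding (4 panels) by genotype; points are limma estimates, lines their 95% intervals, and filled red points have an adjusted p under 0.05. The 4 filled points are Hspa1a after glucose in LIRKO and IR floxed livers, Hsp90aa1 on refeeding in LIRFKO and Hsph1 on refeeding in IR/FoxO1 floxed livers.

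Set directly against refed livers, glucose livers held more Hspa1a in LIRKO and IR floxed mice. The difference was 0.45 ± 0.33 log2 in LIRFKO livers (adjusted p = 0.527), where 1 refed liver at 6.99 lay among the glucose livers. It was 1.65 ± 0.33 log2 in LIRKO (adjusted p = 0.00114) and 1.97 ± 0.33 log2 in IR floxed livers (adjusted p = 0.000566), without overlap in either. Called members were 0, 1 and 1 of 9 in LIRFKO, LIRKO and IR floxed livers, where 5.15%, 12.6% and 6.38% of all genes passed. In LIRFKO livers 4 of 9 had an unadjusted p under 0.05, beside 18% of all genes. These were Hsp90aa1, Hspb1, Hspd1 and Hspe1, all lower after glucose than refed. The median over the 9 members was -0.45 log2 in LIRFKO livers, with 2 of 9 above 0. In LIRKO livers 3 of 9 members lay wholly below the refed livers and 1 above, beside 8.75% and 8.45% of all genes. The 2 Hspa1a calls held without any 1 mouse and were lost with only the compared groups in the fit (adjusted p = 0.0713 in LIRKO and 0.269 in IR floxed livers).

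Hspb1 had the largest genotype difference of the members, and was highest in livers that lack the insulin receptor but keep FoxO1. In refed livers it lay at 14.85, 14.47, 14.54 and 14.38 in LIRKO mice, against 12.20, 12.60, 13.02 and 12.80 in IR floxed mice. Every LIRKO liver lay above every IR floxed liver by more than 1 log2, and Hspb1 rose by 2.04 ± 0.38 log2 (4.12-fold, 95% interval 1.26 to 2.83, adjusted p = 0.000482 by limma). Within the 3 slides that held both groups the difference was 2.24, 1.74 and 1.78 log2, and the call held without any 1 mouse.

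In fasted livers Hspb1 lay at 13.44, 13.87 and 13.84 in LIRKO, against 12.21, 11.17, 13.92 and 12.78 in IR floxed mice. The IR floxed livers spread over more than 2 log2 and 1 of them reached the LIRKO level, and the difference of 1.16 ± 0.42 log2 did not pass (adjusted p = 0.0891; 1.58 log2 and 0.0116 without IR.fl_Fast_542). After glucose the values were 13.32, 13.54 and 14.26 in LIRKO, against 12.56, 13.94 and 12.51 in IR floxed livers, with overlap (0.75 ± 0.44 log2, adjusted p = 0.372).

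In LIRFKO livers, which also lack FoxO1, Hspb1 was lower than in LIRKO livers in all 3 feeding states. FoxO1 loss and other differences of the floxed lines cannot be told apart here. Hspb1 means in IR/FoxO1 floxed and IR floxed livers were 11.81 (IRF.fl_Fast_523 included) and 12.52 fasted, and 12.86 and 12.66 refed. Fasted LIRFKO livers held 12.55, 11.75 and 11.21, below every fasted LIRKO liver, a difference of -1.78 ± 0.44 log2 (0.291-fold, adjusted p = 0.0135 by limma). Refed LIRFKO livers held 13.54, 13.66, 12.85 and 12.19, again below every LIRKO liver (-1.35 ± 0.38 log2, 0.392-fold, adjusted p = 0.0265 by limma). After glucose they held 12.68, 11.52 and 12.41, without overlap (-1.66 ± 0.44 log2, 0.317-fold, adjusted p = 0.0192 by limma). Against IR/FoxO1 floxed livers, which held 12.84, 13.15 and 12.59 refed and 12.25, 11.61 and 11.56 fasted, LIRFKO differed by 0.3 ± 0.43 log2 refed and -0.15 ± 0.47 log2 fasted (0.34 and -0.26 without IRF.fl_Fast_523), and neither passed (adjusted p = 0.886 and 1).

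Each of the 3 calls between LIRFKO and LIRKO was lost when some mice were left out. The fasted call was lost without IRF.KO_Fast_525 (adjusted p = 0.0711) or IR.KO_Fast_550 (0.0905). The refed call was lost without IRF.KO_Refed_468, IRF.KO_Refed_478, IRF.KO_Refed_524, IR.KO_Refed_553, IR.KO_Refed_564 or IR.KO_Refed_565 (adjusted p from 0.0532 to 0.0957). The glucose call was lost without IRF.KO_GTT_726 (0.0766), IRF.KO_GTT_727 (0.0514) or IR.KO_GTT_697 (0.108), or with no array block (0.0507), and with only the compared groups in the fit the fasted and glucose calls were lost (adjusted p = 0.139 and 0.233).

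Markers of Kupffer cells and macrophages moved with Hspb1 in part of these comparisons. Of 12 markers, 7 fell in refed LIRFKO over refed LIRKO livers, where 8.09% of all genes passed in either direction. In refed LIRKO over refed IR floxed livers 10 rose, where 11.6% of all genes passed. The mean over the 12 markers lay at 8.05 to 8.59 in refed LIRFKO, 8.93 to 9.01 in refed LIRKO and 7.72 to 7.94 in refed IR floxed livers. In fasted livers, where Hspb1 also differed between LIRFKO and LIRKO, 0 of 12 markers passed, with means of 7.93 to 8.54 in LIRFKO and 8.44 to 8.63 in LIRKO. After glucose 0 of 12 passed between LIRFKO and LIRKO, with means of 8.02 to 8.83 in LIRFKO and 8.22 to 8.68 in LIRKO. Cd163 and Cd68 lay lowest of the markers, with means of 5.7 and 5.87, close to the column medians. Between LIRKO and IR floxed livers the means did not overlap in the other states either, at 8.44 to 8.63 in LIRKO and 7.94 to 8.33 in IR floxed livers fasted (0 of 12 called), and 8.22 to 8.68 and 7.58 to 8.2 after glucose (1 of 12, Marco). The mean over the 12 hepatocyte markers was lower in LIRKO than in IR floxed livers in each state, at 14.79 to 15.02 and 15.06 to 15.22 fasted, 14.11 to 14.82 and 14.83 to 15.13 refed, and 14.36 to 14.9 and 14.94 to 15.25 after glucose. Of them 1, 2 and 4 fell in LIRKO livers in those states, where 8.06%, 11.6% and 8.3% of all genes passed. In each state 1 hepatocyte marker was higher in LIRFKO than in LIRKO livers, where 6.52%, 8.09% and 7.57% of all genes passed. The part of these cells in the Hspb1 differences was not tested.

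**Figure D4:**
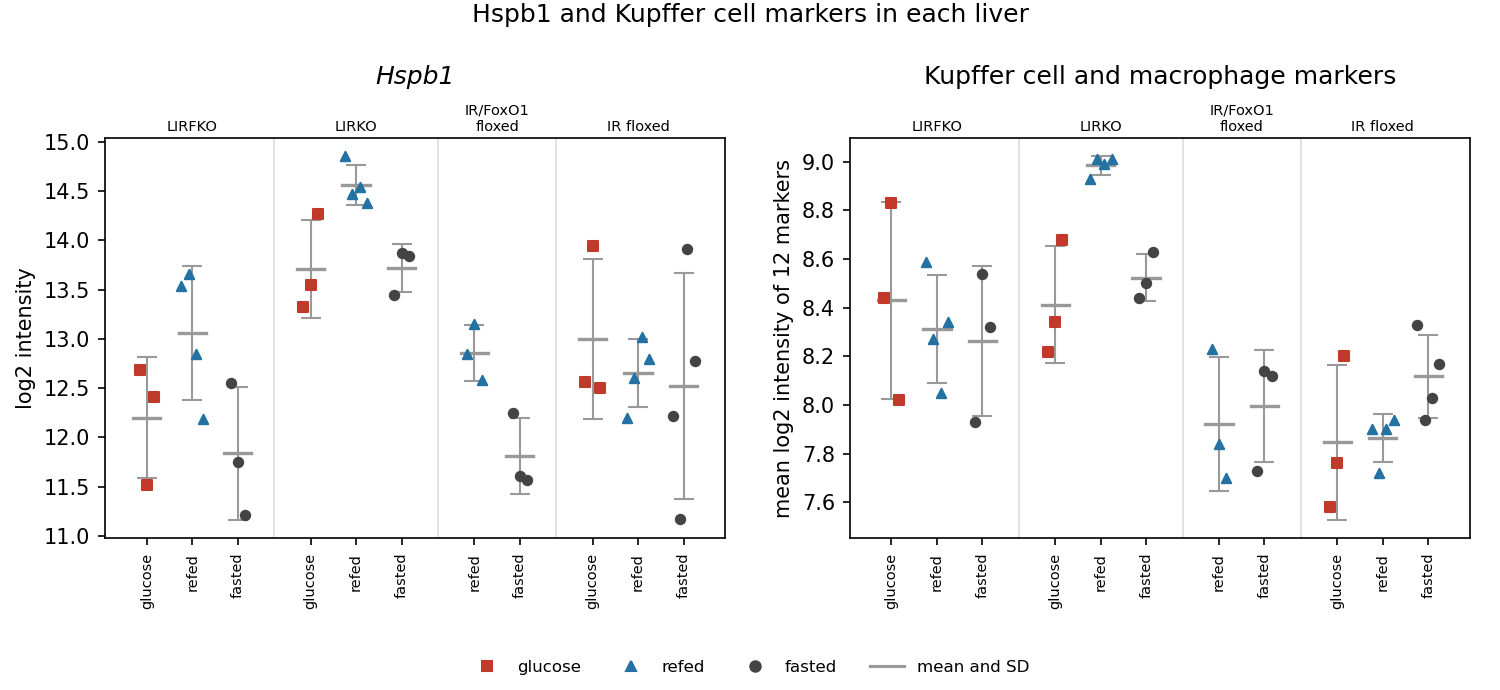
Log2 intensity of Hspb1 (left) and the mean log2 intensity of 12 Kupffer cell and macrophage markers (right) in each of the 37 grouped livers, by genotype and feeding state; each point is 1 mouse, and grey bars give the mean and SD of a group. Hspb1 is lower in LIRFKO than in LIRKO livers in all 3 feeding states, and the markers stand apart in refed LIRKO livers, at 8.93 to 9.01.

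Hspb1 was the 1 member of 9 called between refed LIRKO and IR floxed livers, where 11.6% of all genes passed. There 3 of 9 had an unadjusted p under 0.05 (21.9% of all genes). Between LIRKO and IR floxed livers 0 of 9 passed fasted and after glucose, beside 8.06% and 8.3% of all genes, and 2 and 0 had an unadjusted p under 0.05 (20% and 20.3% of all genes). Hspe1 was higher in LIRKO by 0.64 ± 0.24 log2 fasted and 0.61 ± 0.22 log2 refed without passing (adjusted p = 0.101 and 0.0662), and both passed on leaving out some IR floxed mice (0.0287 fasted without IR.fl_Fast_552, 0.0198 refed without IR.fl_Refed_566). Its refed values were 13.29, 13.59, 12.98 and 13.03 in LIRKO, against 12.38, 12.00, 12.996 and 13.03 in IR floxed livers, and 2 IR floxed livers lay within the LIRKO range. Dnaja1 went the other way, with a difference of -0.51 log2 in refed LIRKO over IR floxed livers that did not pass. It passed without IR.fl_Refed_508 (-0.78 ± 0.21 log2, adjusted p = 0.0204 by limma).

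Called members between LIRFKO and LIRKO livers were 1, 1 and 2 of 9 in the fasted, refed and glucose states, all lower, where 6.52%, 8.09% and 7.57% of all genes passed in either direction. The second gene called after glucose was Hspa1a, which differed by -1.42 ± 0.35 log2 (0.375-fold, adjusted p = 0.0122 by limma), although its highest LIRFKO liver, 7.17, lay above the lowest LIRKO liver, 7.03. This call was lost without IR.KO_GTT_697 (-0.85 log2, adjusted p = 0.264), IRF.KO_GTT_725 (0.0632) or IRF.KO_GTT_727 (0.0761), with no array block (0.0858) and with only the compared groups (0.401). Fasted LIRFKO livers differed from fasted LIRKO livers by -1.05 ± 0.34 log2 in Hsp90aa1 and -0.98 ± 0.34 log2 in Hsph1. Neither pair of groups overlapped and neither passed (adjusted p = 0.0607 and 0.0899), while both passed without IRF.KO_Fast_519 (0.0244 and 0.0311). Hspa8 differed by -0.95 ± 0.41 log2 fasted and -0.91 ± 0.41 log2 after glucose without passing (adjusted p = 0.189 and 0.207). Between LIRFKO and IR/FoxO1 floxed livers 0 of 9 passed fasted or refed, beside 0.00445% and 0.378% of all genes, and 0 had an unadjusted p under 0.05, beside 3.64% and 10.4%. Without IRF.fl_Fast_523, 0 of 9 passed fasted, beside 0.04% of all genes.

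Group means of Hspb1 spanned 2.75 log2, those of Hspa1a 2.47, Dnajb1 1.85, Hsph1 1.61, Hsp90aa1 1.47, Hspa8 1.26, Dnaja1 1.04, Hspe1 0.91 and Hspd1 0.61. The SD within groups was 0.62 log2 for Hspb1, 0.48 for Hspa1a and 0.23 for Hspd1. With IRF.fl_Fast_523 included, fasted IR/FoxO1 floxed livers held the lowest group mean of 6 of the 9 members, Hspa1a, Hspa8, Hsph1, Dnaja1, Hspb1 and Hspd1. That liver held the lowest value of the 37 livers for Hspa8, Hsph1 and Dnaja1. The order of group means without it was not analysed here, so these lowest places may rest on it. For Hspa8 the lowest mean, with that liver, was 14.34 ± 0.79 (SD, n = 3), and the highest was 15.6 ± 0.27 in fasted LIRKO livers (n = 3). Dnaja1 ranged between 13.61 ± 0.62 in refed IR floxed livers (n = 4) and 12.57 ± 0.28 in fasted IR/FoxO1 floxed livers. Neighbouring groups in the orders of both genes differed by less than the larger of their SDs.

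Across the 37 livers some members ran together, given here as a description of samples that share groups and arrays. Hsph1 and Hsp90aa1 had a Pearson r of 0.87, and 0.91 on deviations from the group means. Hspa1a and Dnajb1 had 0.81 and 0.72, and Hspd1 and Hspe1, whose genes overlap at their starts, had 0.57 and 0.53. Hspa1a had an r of -0.05 with Hspd1 and 0.01 with Hspe1.

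Among 11233 genes above the median level, those closest to the mean of the 9 members included further chaperone genes. Chordc1, an Hsp90 cochaperone, led with an r of 0.833 (Spearman's rho 0.858, n = 37), and Bag3, a nucleotide exchange factor of Hsp70, had 0.771. Zfand2a had 0.767 and Dnajb2, a J-domain protein, 0.738, and the other 4 of the 8 closest were Gm7816 (0.807), Ppp1r14b (0.754), Gfpt1 (0.752) and Pelo (0.741). Without the 2 livers farthest from the median of the member mean, these r lay between 0.705 and 0.806.

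Some genes for partners of Hsp90 were called on refeeding. Of 10 measured genes for Hsp90 cochaperones, 5 rose on refeeding in LIRFKO, 0 in LIRKO, 4 in IR/FoxO1 floxed (3 without IRF.fl_Fast_523) and 3 in IR floxed livers, with list medians of 0.52, 0.16, 0.43 and 0.39 log2, where 1.81%, 1.85%, 3.54% and 3.61% of all genes passed in either direction. After glucose 0 of 10 passed in LIRFKO, LIRKO and IR floxed livers, where 0.654%, 0.596% and 0.16% of all genes passed and the list medians were 0.2, 0.01 and 0.01 log2. The difference between refeeding and glucose was not tested for this list. Fkbp4, an immunophilin that joins Hsp90 on steroid receptors, rose by 1 ± 0.18 log2 in LIRFKO (adjusted p = 0.00484), 0.97 ± 0.19 in IR/FoxO1 floxed (0.0042) and 0.87 ± 0.17 in IR floxed livers (0.00372). Chordc1 rose by 1.08 ± 0.24, 1.31 ± 0.26 and 0.86 ± 0.22 log2 in the same genotypes (adjusted p = 0.0188, 0.00323 and 0.028). Stip1, which links Hsp70 to Hsp90, rose by 0.92 ± 0.2 log2 in LIRFKO and 0.96 ± 0.21 in IR/FoxO1 floxed livers (adjusted p = 0.0159 and 0.00904). Without IRF.fl_Fast_523 these 3 genes still passed in IR/FoxO1 floxed livers (adjusted p = 0.0247, 0.0169 and 0.0225). In LIRKO livers Fkbp4 was higher on refeeding by 0.69 ± 0.19 log2 and Stip1 by 0.49 ± 0.21, without passing (adjusted p = 0.061 and 0.319). The list mean did not overlap there, at 10.37 to 10.51 refed and 10.14 to 10.25 fasted. Stip1 in IR floxed livers did not pass (0.62 ± 0.19 log2, adjusted p = 0.0593). The Fkbp4 response differed between LIRKO and IR floxed livers by -0.17 ± 0.24 log2 (adjusted p = 0.971).

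Of 19 other genes of the cytosolic Hsp70 cycle, 2 rose on refeeding in LIRFKO livers (Dnajb2 and Hspa4l), where 1.81% of all genes passed. In IR/FoxO1 floxed livers 1 rose, where 3.54% of all genes passed (Dnajb2, with an adjusted p of 0.0552 by limma without IRF.fl_Fast_523). In the other 5 comparisons with fasted livers 0 passed. Of 8 other small heat shock protein genes, 0 passed in any of these 7 comparisons. Among 14 further mitochondrial chaperones and proteases 1 passed in them, Grpel2, which fell by 0.93 log2 on refeeding in LIRKO livers, where 1.85% of all genes passed. Of 8 subunit genes of TRiC, the cytosolic chaperonin, 1 rose on refeeding in IR/FoxO1 floxed (0 without IRF.fl_Fast_523) and 2 in IR floxed livers. In those comparisons 3.54% and 3.61% of all genes passed. In fasted LIRKO over fasted IR floxed livers 4 of the 8 were higher, where 8.06% of all genes passed. Of the 4 measured genes for heat shock factors and their regulators, 0 passed in the 7 comparisons with fasted livers, and Hsf1 itself had no probe under its name.

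Chaperones of the endoplasmic reticulum, a compartment with its own stress response, were read for contrast. Of 15, 5 rose on refeeding in LIRFKO, 0 in LIRKO, 12 in IR/FoxO1 floxed (6 without IRF.fl_Fast_523) and 12 in IR floxed livers, and 0 passed after glucose in any genotype, beside the same shares of all genes as above. In LIRKO livers Pdia6 was higher on refeeding by 0.77 ± 0.21 log2 without passing (adjusted p = 0.061 by limma). The list mean overlapped there, at 10.98 to 12.4 refed and 10.69 to 11.64 fasted. No gene of this list passed for a difference in the refeeding response between LIRKO and IR floxed livers. Dnajb9 had the smallest p there (-1.42 ± 0.5 log2, adjusted p = 0.341). Of 10 genes for oxidative and metal stress and of 22 for proteasome subunits, 0 passed after glucose. Among 15 immediate early genes 0 rose after glucose, and 2 fell in LIRKO livers, where 0.596% of all genes passed. Of 13 clock genes, 2 fell after glucose in LIRFKO livers, Nr1d1 and Nr1d2, where 0.654% of all genes passed. Cirbp, a gene for an RNA-binding protein induced by cold, fell on refeeding by 1.28 ± 0.27 log2 in LIRFKO (adjusted p = 0.0135 by limma) and 1.40 ± 0.25 in IR floxed livers (0.00176). In IR/FoxO1 floxed livers it fell by 1.08 ± 0.29 log2 (0.0316, or 0.0573 without IRF.fl_Fast_523), and in LIRKO livers it differed by -0.07 log2. Its response differed between LIRKO and IR floxed livers by 1.33 ± 0.36 log2 and between LIRFKO and LIRKO by -1.21 ± 0.37, without passing (adjusted p = 0.155 and 0.528). Rbm3, the other measured gene of this list, differed on refeeding by -0.12 ± 0.39 log2 in LIRKO livers (adjusted p = 0.965). The Rbm3 response differed between LIRKO and IR floxed livers by 0.43 ± 0.49 log2 (adjusted p = 0.957).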

How the data were processed

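The deposited values are log2 intensities, 1 column per dye channel, which the authors made with R 3.1.0 and limma 3.20.1 per the submitters' processing notes. Neither background correction nor normalization is stated in those notes, the labels or the files. The labels' protocols name column-purified, DNase-treated liver RNA, labelled in 2 colours with Agilent's low-input kit, each dye channel being 1 sample. Of 45220 features, 33026 had 1 gene in the platform annotation, 12194 had none and 0 had several; 16347 genes had 1 probe and 6138 several, of which the probe of highest mean was used.

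Groups came from the sample titles. One limma 3.58.1 model (R 4.3.3, statmod 1.5.0) was fitted to all 37 grouped samples, with 1 mean per group, a dye term and the array as a random block (correlation 0.358), and 23 comparisons were taken from it with p-values adjusted by Benjamini-Hochberg over 22485 genes and a threshold of 0.05. No filter on dim probes was used, and the number of arrays, with 3 or 4 mice a group, limits the precision. Fitted changes allow for dye and array, so they differ from differences of group means, in some cases in sign. For Hspb1 in IR floxed livers, means of 12.66 refed and 12.52 fasted went with a fitted change of -0.15 log2. Members, gene lists and tests were chosen with earlier results of these data known. The genes named from other lists were up to 4 per list of smallest p in a comparison, and the 8 closest genes were ranked by Pearson r with the mean of the members' scaled values.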

Additional observations from a re-analysis of the deposited data

Results flagged for a closer look

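The liver titled IRF.KO_GTT_724, which entered no comparison because its labels conflict, lay above every fasted liver of every genotype in 4 members. Its Hspa1a level was 7.56, where the highest fasted liver lay at 6.409 and the highest fasted LIRFKO liver at 5.672. Its Dnajb1 level was 12.069, against at most 11.482 in fasted livers and 11.022 in fasted LIRFKO livers. Its Hsph1 level was 11.106, against at most 10.566 and 10.052, and its Dnaja1 level was 13.563, against at most 13.309 and 13.218. The other measured members did not lie above every fasted liver, and the share of all genes so placed was not analysed here. The values are those of 1 liver with no replicate, and its feeding state was not inferred from them.

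No liver stood apart from its group by Dixon's criterion in the 36 tests of members in groups of 4, where chance flags about 1 in 20. No difference between genotypes in the response of a member to glucose or refeeding passed the limma threshold.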

How the results depend on the processing

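No result of a member turned its direction while past the threshold under any alternative. Members called higher after glucose over fasted in LIRKO livers went to 0, and those lower in LIRFKO over LIRKO after glucose to 0, with no array block. Members higher on refeeding in IR/FoxO1 floxed livers were 2 with no array block (Hsp90aa1, adjusted p = 0.0469), no dye term (0.0497), trend and robust variances (0.0482), the mean over all probes (Dnaja1, 0.0489) or genes above the median level (Hsp90aa1, 0.0242). They were 0 with a slide term or without IRF.fl_Fast_523 in any fit, which left fewer samples. With a slide term, 3 members were lower in fasted LIRFKO over LIRKO livers. With the mean over probes, 1 was lower in glucose over refed LIRFKO livers (Hspe1, 0.0336). Testing only genes above the median level, which adjusts over fewer genes, gave 2 members higher after glucose in IR floxed livers, 2 on refeeding in LIRFKO, 1 in fasted and 2 in refed LIRKO over IR floxed livers, and 2 lower in fasted LIRFKO over LIRKO livers. With only the compared groups in the fit, 0 members were higher after glucose in LIRKO and IR floxed livers, on refeeding in LIRFKO, and in glucose over refed LIRKO and IR floxed livers, 0 were lower in LIRFKO over LIRKO livers fasted and after glucose, and 2 were higher on refeeding in IR/FoxO1 floxed livers. Quantile normalization and testing each probe changed no member count. Without 1 mouse in turn, members higher were 0 to 1 (LIRKO) and 1 to 2 (IR floxed) after glucose, 0 to 1 (LIRFKO), 0 to 0 (IR/FoxO1 floxed) and 0 to 1 (IR floxed) on refeeding, and 0 to 1 (fasted) and 1 to 2 (refed) in LIRKO over IR floxed livers. Members lower were 0 to 1 in refed LIRKO over IR floxed livers, and 0 to 3 (fasted), 0 to 1 (refed) and 0 to 2 (glucose) in LIRFKO over LIRKO livers.

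Over all genes, counts past the threshold after glucose were 147, 134 and 36 in LIRFKO, LIRKO and IR floxed livers, 43, 20 and 17 with no array block, and 0 in each with only the compared groups. They were 59 and 43 in LIRFKO and LIRKO livers with no dye term, 227 and 287 with each probe tested, 79 in LIRKO livers with trend and robust variances and 7 in IR floxed livers with a slide term. Without 1 mouse in turn they ranged over 18 to 160, 5 to 550 and 3 to 384. On refeeding they were 407, 416, 796 and 811 in LIRFKO, LIRKO, IR/FoxO1 floxed and IR floxed livers, and 461 in IR/FoxO1 floxed livers without IRF.fl_Fast_523 in any fit. Without 1 mouse in turn they went down to 107, 191, 331 and 418, and with only the compared groups to 32, 170, 336 and 61. With each probe tested they were 665 in LIRKO livers. In LIRFKO and IR/FoxO1 floxed livers they were 219 and 493 with no array block, and in LIRFKO livers 264 with no dye term and 269 with a slide term. With no dye term those of IR/FoxO1 floxed livers were also fewer by more than 1.5 times. The causes of these shifts were not tested. No analysis paired by mouse was possible because no mouse number is shared between groups. Within slides that held both groups, 126 member differences moved by less than the SD within groups and 27 by more, and no called one turned its direction. Those moved included the Hsp90aa1 call on refeeding in LIRFKO livers (0.48 log2) and the Hspa1a call after glucose in LIRKO livers (1.26 log2). Signal over background was not analysed here, and the lowest Hspa1a values lay below the column medians.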

Other observations

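The mean of the members' scaled values was highest in IRF.KO_Refed_469 (1.38), IR.fl_Refed_566 (1.27) and IR.fl_GTT_691 (1.26), each in a different genotype or feeding state, and lowest in IRF.fl_Fast_533 (-1.37). IR.fl_GTT_691 held the highest Hspa8 and Dnajb1 of the 37 livers, IR.fl_Refed_566 the highest Hsph1 and Dnaja1, and IRF.KO_Refed_469 the highest Hspd1. Each member had a Pearson r with the mean of the others between 0.39 (Hspd1) and 0.85 (Hsph1) over the 37 livers, with 0.47 for Hspa1a, a description of livers that share groups and arrays.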
